A study of Mus musculus with 12 samples.

Results

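The family of miR-148 and miR-152 in mouse has 3 precursor genes, Mir148a, Mir148b and Mir152, and each precursor gives a mature microRNA (miRNA) from its 5p arm and another from its 3p arm. These 6 arms, listed as mmu-mir-148a-3p, mmu-mir-148a-5p, mmu-mir-148b-3p, mmu-mir-148b-5p, mmu-mir-152-3p and mmu-mir-152-5p, were taken by name from the 1978 miRNA names of the count table, and all 6 were found. The family was chosen because miR-148a responded differently to DSS in blood and in colon in these libraries, so for miR-148a the responses to DSS, and how these differ between tissues, are given as a description without a test. The arms of miR-148b and miR-152 came in by family name alone and were tested.

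Small RNA from the colon and the whole blood of 6 male C57BL/6 mice was sequenced, giving 12 libraries. DSS mice (mice 1, 7 and 9) had dextran sulfate sodium, which damages the lining of the colon and brings on an acute colitis, at 1.5% (wt/vol) in their water for 7 days, and control mice (mice 2, 4 and 8) had plain water. All mice were sacrificed on day 8. Both tissues came from the same animals, so each group holds 3 mice, and the labels name no transgene or deletion in either group.

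The grouping by mouse follows the names used in the figures of the study. The disease state label of the samples gives another grouping, with mice 1, 2 and 4 as colitis and mice 7, 8 and 9 as controls, and the source and tissue labels name opposite tissues for each library. The tissue of each library was taken from the names in the deposited normalized tables. Marker miRNAs went with these names: the summed level of 5 erythroid miRNAs (miR-451a, the miR-144 arms and the miR-486 pair) ran from 579912 to 1142910 CPM in blood but from 3127 to 4730 CPM in colon, and that of 12 epithelial miRNAs from 57792 to 210747 CPM in colon but from 974 to 1354 CPM in blood. CPM are counts scaled to the size of the library, here by edgeR with TMM factors within a tissue, and can add up to more than the nominal total. In that list miR-486a-5p and miR-486b-5p share reads. Total counts were 15060553 to 20106226 per colon library and 21127134 to 32944792 per blood library. Whole tissue was sequenced, so fewer cells of a type and less miRNA per cell cannot be told apart in any value below.

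A miRNA guides a silencing complex to messenger RNAs, and pairing of its seed (bases 2 to 8) with the target decides most of what it binds. Messenger RNAs for the DNA methyltransferase DNMT1 and for the calcium/calmodulin-dependent kinase CaMKII are well described targets of the seed that miR-148 and miR-152 share, and the family has been linked to epithelial differentiation and to antigen presentation by dendritic cells. Of the arms cut from a precursor, usually the one loaded into the complex is kept and becomes the more abundant, and the other is degraded.

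The mature sequences are shown because the family is defined by them and because they decide which reads can be told apart. They were taken from the deposited tables, are written 5′ to 3′, and have the seed in capitals. All 6 matched the RefSeq entries of the same name.
miR-148a-3p: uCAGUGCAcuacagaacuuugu
miR-148b-3p: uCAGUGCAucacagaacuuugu
miR-152-3p: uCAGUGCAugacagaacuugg
miR-148a-5p: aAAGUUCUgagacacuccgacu
miR-148b-5p: gAAGUUCUguuauacacucaggcu
miR-152-5p: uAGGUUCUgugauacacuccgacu

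The 3p arms shared 1 seed, and 0 other names among the 1405 with a deposited sequence carried it. Counted from 1 at the 5′ end, miR-148b-3p differed from miR-148a-3p by C9U and U10C, and miR-152-3p differed from miR-148b-3p by C10G and U20G, besides being 1 base shorter. Reads that end early or carry an error at the bases that differ can be assigned to the wrong member, so a low level of a 3p arm beside an abundant one is uncertain to that extent. The 5p arms of miR-148a and miR-148b shared another seed, and miR-152-5p carried its own.

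The precursors lie on different chromosomes (GRCm38, GENCODE annotation). Mir148a (chr6:51269812-51269910, minus strand) overlapped no other annotated gene, and the nearest protein-coding gene, Nfe2l3, lay 162760 bp away. Mir148b (chr15:103285125-103285221, plus strand) lay in an intron of Copz1 on the same strand, and Mir152 (chr11:96850393-96850465, plus strand) in an intron of Copz2 on the same strand. Copz1 and Copz2 encode the zeta subunits of the COPI vesicle coat. The precursors are shown from RefSeq (GRCm38.p6), with the mature arms in capitals, since the balance between the arms is compared further on.
Mir148a: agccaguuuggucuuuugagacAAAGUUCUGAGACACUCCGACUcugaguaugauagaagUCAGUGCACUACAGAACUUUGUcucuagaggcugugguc
Mir148b: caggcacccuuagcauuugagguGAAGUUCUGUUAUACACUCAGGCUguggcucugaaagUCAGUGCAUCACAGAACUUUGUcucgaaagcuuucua
Mir152: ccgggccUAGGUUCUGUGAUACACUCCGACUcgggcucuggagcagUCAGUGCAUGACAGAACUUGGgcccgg

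In colon, both arms of miR-148a were less abundant in DSS mice than in control mice, while the arms of miR-148b and miR-152 did not pass the test. The counts of miR-148a-3p were 323785, 247198 and 243041 in DSS mice 1, 7 and 9 and 609863, 625619 and 549584 in control mice 2, 4 and 8. On the scale of CPM within colon these were 23201, 13937 and 9407 CPM in the DSS mice against 40653, 37780 and 34447 CPM in the controls. The groups did not overlap, and among the DSS mice, mouse 1 was nearest to the controls and mouse 9 farthest. The means were 15515 ± 7031 CPM in DSS mice and 37627 ± 3106 CPM in controls (SD, n = 3 each), a log2FC of -1.28 (SE 0.32). miR-148a-3p ranked 6 to 10 among all miRNAs of the control colon libraries and 13 in each DSS colon library.

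The other strand of the same precursor, miR-148a-5p, was far less abundant and went the same way. It had 413, 261 and 481 counts in DSS mice 1, 7 and 9 and 587, 811 and 742 counts in control mice 2, 4 and 8, or 29.6, 14.7 and 18.6 CPM against 39.1, 49.0 and 46.5 CPM within colon. These groups did not overlap either, and the log2FC was -1.10 (SE 0.27). Values that do not overlap between the groups were found in 38.6% of the 542 miRNAs tested in colon, and 16.1% of them did not overlap with DSS mice lower and 22.5% with DSS mice higher. The arms of miR-148a were chosen on this comparison, so nothing is read from these shares. With the grouping of the disease state label, the log2FC of miR-148a-3p was 0.81 and that of miR-148a-5p was 0.56, so the direction turned with the grouping. In that grouping edgeR called 0 of the 542 miRNAs in colon SDE and 20 had an unadjusted p under 0.05 (DESeq2 was not run on it), against 55 and 170 in the grouping used here.

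miR-148b-3p, the member with the same seed from Mir148b, had 474, 400 and 328 CPM within colon in DSS mice 1, 7 and 9 and 487, 460 and 444 CPM in control mice 2, 4 and 8. Mouse 1 lay among the controls, so the groups overlapped. The log2FC was -0.21 (SE 0.15, edgeR adjusted p = 0.379). For miR-148b-5p the values were 14.9, 13.5 and 11.5 CPM in DSS mice and 18.0, 16.4 and 15.1 CPM in controls. These did not overlap, but by a small gap, and the log2FC of -0.31 (SE 0.17) did not pass the test (edgeR adjusted p = 0.252).

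miR-152-3p lay slightly higher in DSS mice, without passing the test. Its levels within colon were 1129, 1106 and 847 CPM in DSS mice 1, 7 and 9 and 871, 722 and 826 CPM in control mice 2, 4 and 8, with mouse 9 among the controls. The log2FC was 0.35 (SE 0.15, edgeR adjusted p = 0.168). It was 0.54 with total counts alone (SE 0.15, edgeR adjusted p = 0.0566) and 0.47 without mouse 9 (SE 0.12, edgeR adjusted p = 0.0753). With upper-quartile factors it was 0.23 (SE 0.16, edgeR adjusted p = 0.357). miR-152-5p had 12.8, 12.5 and 11.0 CPM in DSS mice and 10.3, 9.78 and 10.5 CPM in controls, which did not overlap, with a log2FC of 0.24 (SE 0.15, edgeR adjusted p = 0.308). SDE (significantly differentially expressed) stands for a fold change above 1.5 together with an adjusted p no higher than 0.05. In colon 10.1% of the miRNAs tested were SDE (55 of 542), and 0 of the 4 arms of miR-148b and miR-152 were, with edgeR as with DESeq2. In the edgeR fit that gave the first values of each arm, 0 of the 4 had an unadjusted p under 0.05. The number of SDE miRNAs in colon depended on single mice and on the scaling: it was 0 without mouse 2, 4, 7 or 8 (125 to 158 miRNAs with an unadjusted edgeR p under 0.05) and in the edgeR fit of all 12 libraries (104 with an unadjusted p under 0.05), 44 without mouse 1, 37 without mouse 9, 16 with RLE factors, 8 with upper-quartile factors and 79 with DESeq2.

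**Figure D1:**
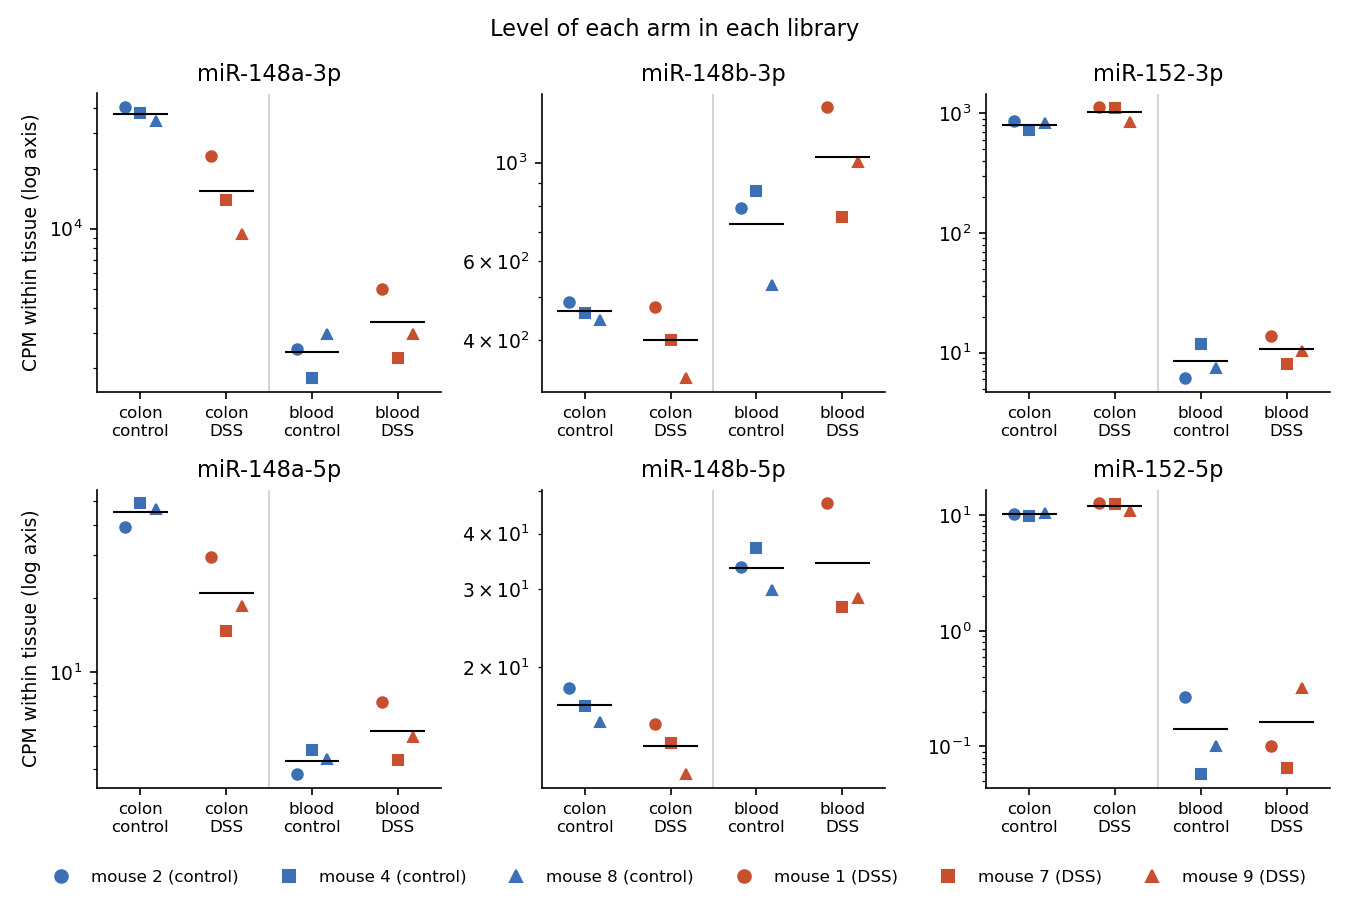
Level of each arm in each library, as CPM within its tissue on a log axis, with 1 point per mouse, the mean of the 3 mice as a bar, and colon and blood scaled separately. The colon points of both miR-148a arms, of miR-148b-5p and of miR-152-5p do not overlap between control and DSS mice, the blood points of all 6 arms overlap between them, and miR-152-5p in blood rests on 1 to 7 counts per library.

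Because the ratio of members within a library is free of library scaling, the colon values were also set against each other. The count of miR-148a-3p over that of miR-148b-3p was 49.0, 34.8 and 28.7 in the colon of DSS mice 1, 7 and 9 and 83.4, 82.1 and 77.6 in that of control mice 2, 4 and 8. Against miR-152-3p the ratio was 20.5, 12.6 and 11.1 in DSS mice and 46.7, 52.3 and 41.7 in controls. Both ratios were lower in each DSS mouse than in any control mouse. The ratio of miR-148b-3p to miR-152-3p, which does not involve miR-148a, was 0.419, 0.362 and 0.387 in DSS mice and 0.559, 0.637 and 0.537 in controls, with no overlap. Neither of these members passed the test in colon, and 38.6% of the single miRNAs tested there did not overlap between the groups. These ratios are descriptions and were not tested.

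Most epithelial miRNAs on the list were lower in colon together with miR-148a. Of the 12, 7 were SDE and lower and 0 SDE and higher in DSS mice, where 10.1% of all miRNAs tested were SDE, with a median log2FC of -1.08 against 0.04 over all miRNAs tested. These calls fell to 0 without mouse 2, 4, 7 or 8 and in the edgeR fit of 12 libraries, to 2 without mouse 9 and to 3 with RLE or upper-quartile factors, rose to 11 without mouse 1 and were 10 with DESeq2, while the median stayed between -1.42 and -0.87 with a mouse left out. With the grouping of the disease state label it was 0.63. The most abundant, miR-192-5p, had 34131 ± 14079 CPM in DSS mice and 83335 ± 10233 CPM in controls (log2FC -1.29, edgeR adjusted p = 0.0491), and miR-200b-3p had 18009 ± 8068 and 38216 ± 4718 CPM (log2FC -1.09, edgeR adjusted p = 0.0764). The others that did not pass were miR-200a-3p, miR-200c-3p, miR-215-5p and miR-375-3p, with log2FC of -1.12, -0.84, -0.73 and 0.06 (edgeR adjusted p = 0.0887, 0.0739, 0.194 and 0.941), named after their values were seen. The summed level of the list was 140207, 82314 and 57792 CPM in DSS mice 1, 7 and 9, in the same order as miR-148a-3p, and 168804 to 210747 CPM in controls. As a percentage of the summed epithelial counts of the same library, miR-148a-3p was 16.5%, 16.9% and 16.3% in the colon of DSS mice and 24.1%, 17.9% and 17.9% in that of control mice 2, 4 and 8. These percentages did not overlap between the groups. In blood, where the list was low, the same percentage was 511%, 211% and 256% in DSS mice and 183%, 154% and 233% in controls, and the groups overlapped. The part of epithelial miRNAs in the level of miR-148a-3p was not tested.

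Other lists moved less or the other way in colon. Of 7 leukocyte miRNAs, 3 were SDE and higher and 0 SDE and lower (median log2FC 1.04). These calls, and that of the muscle and stromal list given next, were also lost without mouse 2, 4, 7 or 8, in the fit of 12 libraries and with RLE or upper-quartile factors. There were 1 and 0 without mouse 9 and with limma, 4 and 0 with DESeq2, 2 and 0 with at least 10 counts in every library, and 5 and 2 without mouse 1. The median of the leukocyte list was -0.94 with the grouping of the disease state label. The summed level of the leukocyte list was 1396 to 2605 CPM in DSS mice and 917 to 1298 CPM in controls. Its most abundant members were miR-146a-5p (log2FC 0.83, edgeR adjusted p = 0.0431) and miR-142a-5p (log2FC 1.04, edgeR adjusted p = 0.149). Of 8 muscle and stromal miRNAs, 1 was SDE and higher and 0 SDE and lower (median log2FC -0.05). The most abundant were miR-143-3p, with a log2FC of -0.02 (edgeR adjusted p = 0.961), and miR-145a-3p, with a log2FC of -0.07 (edgeR adjusted p = 0.681). Erythroid miRNAs, of which 4 of 5 were tested, had 0 SDE in either direction, and miR-486b-5p and miR-486a-5p led them with log2FC of 0.16 and 0.17.

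In blood, the means of all 5 arms tested were higher in DSS mice, but the groups overlapped for each and no arm of miR-148b or miR-152 passed the test. The counts of miR-148a-3p were 197841, 69321 and 63880 in DSS mice 1, 7 and 9 and 55242, 30917 and 87641 in control mice 2, 4 and 8. Within blood these were 4980, 2235 and 2949 CPM against 2482, 1780 and 2973 CPM. Mouse 1 was above all controls, and mice 7 and 9 lay within their range. The log2FC was 0.49 (SE 0.34). It was 0.16 without mouse 1 and 0.78 without mouse 7, the lowest and highest value with a mouse left out. miR-148a-5p had 7.50, 4.35 and 5.40 CPM in DSS mice and 3.82, 4.78 and 4.41 CPM in controls, with a log2FC of 0.41 (SE 0.27) that was 0.22 without mouse 1, 0.64 without mouse 7, 0.69 with total counts and 0.72 in the fit of 12 libraries.

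Mouse 1 was also the highest blood library for the tested arms of miR-148b and miR-152. miR-148b-3p had 1332, 753 and 1004 CPM in DSS mice 1, 7 and 9 and 792, 862 and 532 CPM in control mice 2, 4 and 8 (log2FC 0.50, SE 0.28, edgeR adjusted p = 0.539). Its log2FC was 0.84 in the fit of 12 libraries (SE 0.28, edgeR adjusted p = 0.326) and 0.32 without mouse 1. miR-148b-5p had 46.9, 27.4 and 28.6 CPM in DSS mice and 33.6, 37.1 and 29.8 CPM in controls, and its log2FC of 0.04 (SE 0.27, edgeR adjusted p = 0.973) fell to -0.20 without mouse 1. miR-152-3p had 13.9, 8.06 and 10.4 CPM in DSS mice and 6.11, 11.8 and 7.46 CPM in controls (log2FC 0.35, SE 0.33, edgeR adjusted p = 0.734), and its log2FC was 0.18 without mouse 1 and 0.72 without mouse 4. miR-152-5p was removed by the filter on low counts in blood: it had 4, 2 and 7 counts in DSS mice and 6, 1 and 3 counts in controls, around the floor of 3 counts at which presence cannot be told from counting error.

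In blood 0% of the 484 miRNAs tested were SDE with edgeR, 56 had an unadjusted p under 0.05, and DESeq2 called 13. With no filter on low counts edgeR called 25 of 1121, and it called 1 without mouse 2 and 1 in the fit of 12 libraries. Of the 3 tested arms of miR-148b and miR-152, 0 were called by either tool. In the edgeR fit that gave the first values of each arm in blood, 0 had an unadjusted p under 0.05. Non-overlapping groups were found in 17.4% of the miRNAs tested in blood (9.92% with DSS mice lower and 7.44% with DSS mice higher) and in 0 of the arms. Erythroid miRNAs dominated the blood libraries. Their summed level was lowest in mouse 1, at 579912 CPM, where miR-148a-3p was highest, and highest in mouse 4, at 1142910 CPM, where miR-148a-3p was lowest. None of the 5 erythroid miRNAs was SDE (median log2FC -0.23 against -0.05 over all miRNAs tested), and miR-486b-5p and miR-486a-5p led them with log2FC of -0.23 and -0.25. The epithelial list summed to 974 to 1153 CPM in DSS mice and 1155 to 1354 CPM in controls, lower in each DSS mouse than in any control mouse, but by a very small gap. Of its 11 members tested in blood, 0 were SDE with edgeR and 1 was SDE and lower with DESeq2. Their median log2FC was -0.26 against -0.05 over all miRNAs tested, and the most abundant at the top of the list in colon, miR-192-5p, was at -0.06 (edgeR adjusted p = 0.938). The leukocyte list, led by miR-142a-5p (log2FC 0.22) and miR-150-5p (log2FC -0.11), summed to 4723 to 5786 CPM in DSS mice and 3292 to 5342 CPM in controls. The part of these cells in the values of the family was not tested. The liver miRNA miR-122-5p had 6.37 to 10.6 CPM in DSS mice and 15.9 to 191 CPM in controls (log2FC -3.55, edgeR adjusted p = 0.165), and its values in colon were 8.28 to 104 CPM and 15.0 to 36.6 CPM. In blood it was SDE and lower with DESeq2, with no filter and without mouse 2, and its log2FC was -2.57 without mouse 4.

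**Figure D2:**
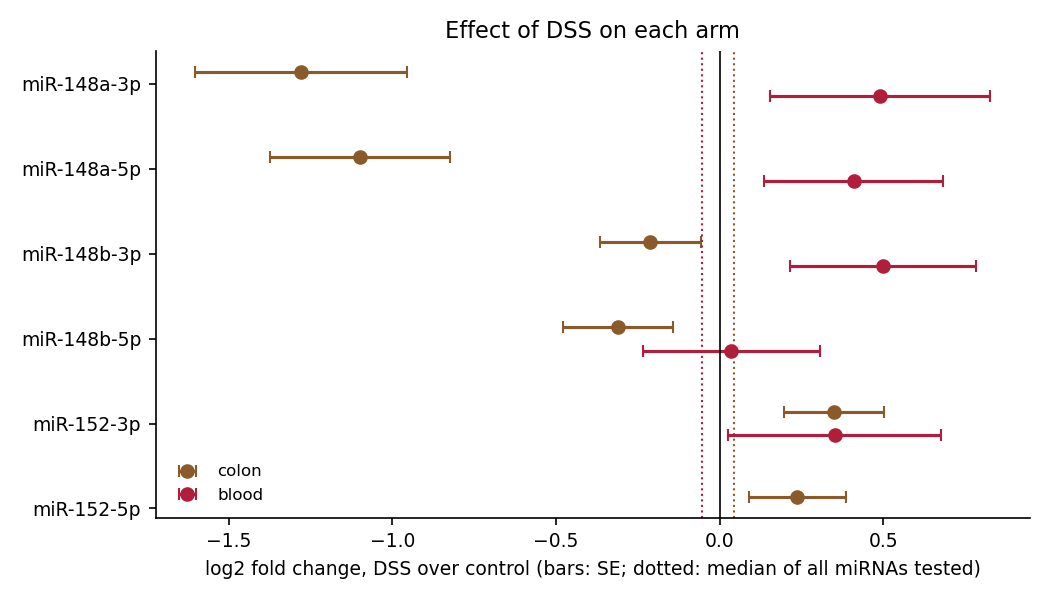
Log2 fold change of each arm, DSS over control, in colon and in blood, each fitted alone with 3 mice per group; bars are the SE and dotted lines the median of all miRNAs tested. The miR-148a arms lie at -1.28 and -1.10 in colon and at 0.49 and 0.41 in blood, miR-152-3p lies at 0.35 in both tissues, and miR-152-5p has no blood value.

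How far the log2FC with DSS in blood exceeded that in colon was estimated in 1 fit over the 12 libraries. It was 2.10 (SE 0.58) on the log2 scale for miR-148a-3p and 1.86 (SE 0.49) for miR-148a-5p, the values on which the family was chosen. For miR-148b-3p, with the same seed, it was 1.09 (SE 0.40, edgeR adjusted p = 0.300, unadjusted p = 0.0155), and for miR-148b-5p 0.73 (SE 0.45, edgeR adjusted p = 0.485). For miR-152-3p it was 0.37 (SE 0.44, edgeR adjusted p = 0.747), with 0.043 without mouse 1 and 0.65 without mouse 4, and for miR-152-5p 0.07 (SE 0.62, edgeR adjusted p = 1.00). The median over all 680 miRNAs tested was 0.22, and it ranged from -0.18 with RLE factors to 0.22 with TMM, so each value moves with the scaling. Relative to that median, the difference was 1.84 to 1.96 for miR-148a-3p and 0.78 to 0.95 for miR-148b-3p over the 4 scalings (TMM, RLE, upper-quartile and total counts). The sign for both arms of miR-152 turned with RLE factors, to -0.12 and -0.31, but relative to the median it did not turn over the 4 scalings (0.065 to 0.23 for miR-152-3p and -0.14 to -0.097 for miR-152-5p). With edgeR 0% of the miRNAs tested were SDE for this difference, 94 had an unadjusted p under 0.05 and DESeq2 called 36. The calls of edgeR were 8 with RLE factors, 27 with no filter, 3 with at least 10 counts in every library, 2 without mouse 1 and 1 with a block for the mouse. None of these calls was an arm of miR-148b or miR-152.

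A comparison of levels between blood and colon shows how differently the members were distributed. Levels here are CPM after TMM scaling of the 12 libraries together. miR-148a-3p was highest in the colon of control mice, at 29547 ± 2866 CPM, followed by the colon of DSS mice at 11807 ± 5242 CPM, the blood of DSS mice at 5020 ± 2825 CPM and the blood of control mice at 2925 ± 1187 CPM (SD, n = 3 each). Only the first of these groups stood clear of its neighbour: DSS colon (7114 to 17465 CPM) overlapped with DSS blood (3340 to 8282 CPM), and DSS blood with control blood (1857 to 4202 CPM). miR-148a-5p kept the same order, with 35.2 ± 3.69, 15.9 ± 5.65, 8.43 ± 3.52 and 5.13 ± 1.04 CPM.

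miR-148b was the member more abundant in blood. miR-148b-3p had 1504 ± 617 CPM in the blood of DSS mice and 839 ± 77.1 CPM in that of control mice, against 364 ± 22.5 CPM in control colon and 305 ± 54.4 CPM in DSS colon. The blood groups did not overlap on this scale (1137 to 2216 and 752 to 899 CPM), whereas they did on the scale within blood. The colon groups overlapped. miR-148b-5p had 50.8 ± 24.0 and 39.2 ± 2.75 CPM in the blood of DSS and control mice, and 10.1 ± 1.30 and 12.9 ± 1.33 CPM in their colon.

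miR-152 was found mostly in the colon libraries. miR-152-3p had 784 ± 124 CPM in DSS colon and 633 ± 63.9 CPM in control colon, and 15.7 ± 6.35 and 9.85 ± 2.88 CPM in DSS and control blood. Of miR-152-5p, 1167 counts were found over the 6 colon libraries and 23 over the 6 blood libraries, at 9.19 ± 0.788 and 8.01 ± 0.298 CPM in DSS and control colon. The level in each blood library was below that of each colon library for both arms of miR-152.

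In control mice the log2FC of blood over colon was -3.34 (SE 0.44) for miR-148a-3p and -2.78 (SE 0.37) for miR-148a-5p. The response on which miR-148a was chosen is the difference between these values and those of DSS mice, so for its arms they are a description without a test. It was 1.21 (SE 0.29) for miR-148b-3p and 1.60 (SE 0.33) for miR-148b-5p (edgeR adjusted p = 0.0011 and 0.000323). It was -6.01 (SE 0.39) for miR-152-3p and -5.50 (SE 0.47) for miR-152-5p (edgeR adjusted p = 2.34e-09 and 4.2e-08). All 4 arms of miR-148b and miR-152 were SDE, those of miR-148b higher and those of miR-152 lower in blood. Such calls were common, since 86.5% of the 680 miRNAs tested were SDE between the tissues in control mice, 35.7% higher and 50.7% lower in blood. The median log2FC of all miRNAs was -1.14 with TMM and -1.70 to 0.11 over the 4 scalings, so the values were also set against it. Relative to the median, they were -2.20 for miR-148a-3p, 2.34 for miR-148b-3p and -4.87 for miR-152-3p, and over the scalings these ranged from -2.21 to -2.20, from 2.31 to 2.41 and from -4.91 to -4.81. The 5p arms kept the same sides, at -1.64, 2.73 and -4.37. With scaling by total counts alone, miR-148b-3p was at 0.60 and not SDE (edgeR adjusted p = 0.0765).

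In DSS mice the same order was found. The log2FC of blood over colon was 2.30 (SE 0.30) for miR-148b-3p and 2.33 (SE 0.34) for miR-148b-5p (edgeR adjusted p = 3.45e-06 and 1.11e-05), and -5.64 (SE 0.38) for miR-152-3p and -5.43 (SE 0.46) for miR-152-5p (edgeR adjusted p = 3.07e-09 and 3.17e-08). All 4 were SDE. For miR-148a-3p it was -1.23 (SE 0.41) and for miR-148a-5p -0.92 (SE 0.35), given without a test. Among the miRNAs tested, 83.4% were SDE between the tissues in DSS mice, 36% higher and 47.4% lower in blood. Against the median of all miRNAs (-0.70) the values were 3.00 for miR-148b-3p, -4.94 for miR-152-3p and -0.54 for miR-148a-3p. With upper-quartile factors the log2FC was -0.12 for miR-148a-3p and 0.20 for miR-148a-5p, so the sign turned for miR-148a-5p. Over the 4 scalings miR-148a-3p lay between -2.04 and -0.12. Relative to the median neither arm turned, at -0.59 to -0.46 for miR-148a-3p and -0.25 to -0.19 for miR-148a-5p.

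**Figure D3:**
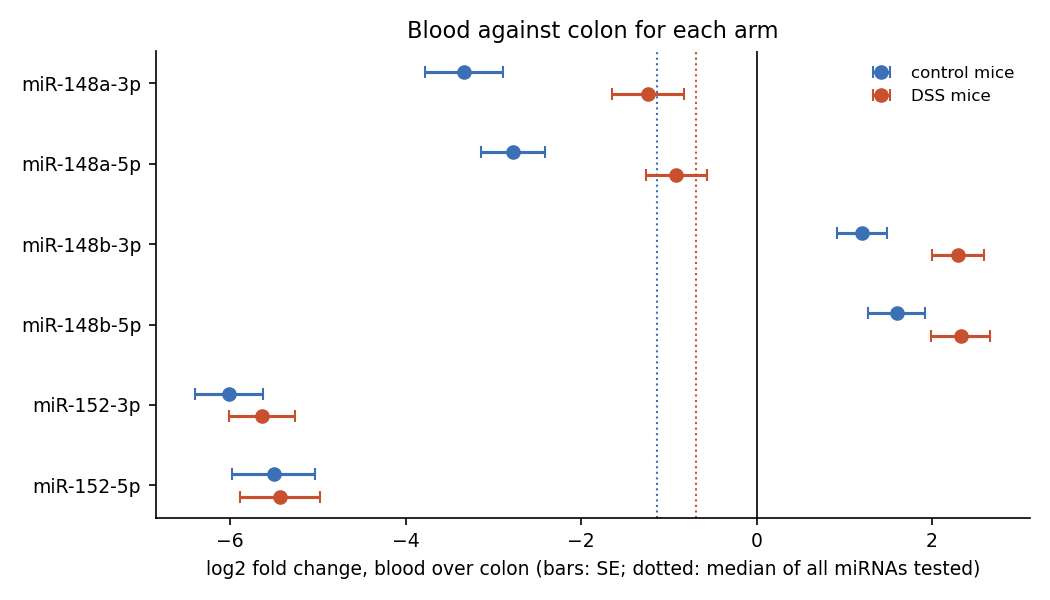
Log2 fold change of each arm, blood over colon, in control and in DSS mice, from 1 fit of 12 libraries with 3 mice per group; bars are the SE and dotted lines the median of all miRNAs tested (-1.14 and -0.70). The miR-148b arms lie at 1.21 to 2.33, right of zero and of both medians, the miR-152 arms at -6.01 to -5.43, and the miR-148a arms between them.

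Since the 3p arms share a seed, their counts were also taken as shares of the summed 3p counts of the family in each library, which needs no scaling between libraries. In colon, miR-148a-3p made up 93.8% ± 3.54 of them, miR-152-3p 4.33% ± 2.72 and miR-148b-3p 1.86% ± 0.826 (SD, n = 6). In blood, miR-148a-3p made up 75.8% ± 5.76, miR-148b-3p 23.9% ± 5.69 and miR-152-3p 0.266% ± 0.0932 (SD, n = 6). miR-148a-3p was thus the main member in each library, and the second member was miR-152-3p in colon and miR-148b-3p in blood.

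The tissues did not overlap in any of these shares. The share of miR-148b-3p was 15.2% to 32.5% in blood and 1.16% to 3.10% in colon, that of miR-152-3p 0.186% to 0.445% in blood and 1.85% to 8.01% in colon, and that of miR-148a-3p 67.1% to 84.6% in blood and 88.9% to 97.0% in colon. The differences of blood minus colon were 22.02, -4.06 and -18.0 percentage points, and each went the same way in 6 of 6 mice. Each share holds miR-148a-3p in its denominator, so they were not tested. The log2 ratio of miR-148b-3p to miR-152-3p, which leaves miR-148a out, was 6.52 ± 0.316 in blood and -1.08 ± 0.329 in colon (SD, n = 6), a difference of 7.59 that was higher in blood in 6 of 6 mice. For this ratio, chosen after the data were seen, p was 0.00216 in an exact two-sided permutation test of 6 against 6 libraries, the smallest that this test can give. That p restates the full separation of the tissues already seen and ignores the pairing by mouse, so no further support is read from it. The libraries of a tissue hold DSS and control mice together.

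Within colon the shares did not overlap between the groups. They include miR-148a-3p, on which the family was chosen, and were not tested. miR-152-3p made up 4.55% to 8.01% in DSS colon and 1.85% to 2.31% in control colon, and miR-148b-3p 1.91% to 3.10% and 1.16% to 1.24%. In blood the DSS mice lay between the controls: miR-148b-3p made up 21.1% to 25.3% of the 3p counts in DSS mice and 15.2% to 32.5% in control mice. The summed level of the 3p arms on the 12-library scale was 18671, 12014 and 8003 CPM in the colon of DSS mice 1, 7 and 9 and 33452, 30561 and 27622 CPM in that of control mice 2, 4 and 8. In blood it was 10521, 4608 and 4489 CPM in DSS mice and 3590, 2768 and 4965 CPM in controls. In colon the sum followed miR-148a-3p, and in blood it overlapped between the groups.

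**Figure D4:**
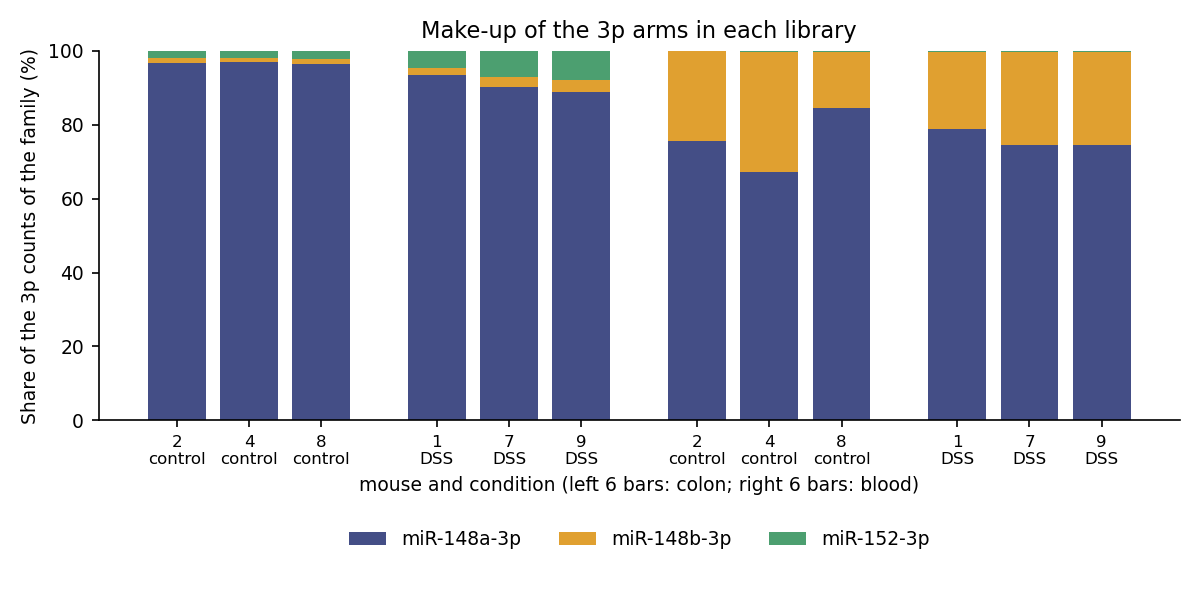
Share of miR-148a-3p, miR-148b-3p and miR-152-3p in their summed counts, 1 bar per library. The second member of the family is miR-152-3p in the 6 colon bars (1.85% to 8.01%) and miR-148b-3p in the 6 blood bars (15.2% to 32.5%).

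The balance of the arms differed more between the precursors than between the tissues. The 5p arm gave 0.132% ± 0.0355 of the counts of Mir148a in colon and 0.183% ± 0.0457 in blood, 3.33% ± 0.173 and 3.86% ± 0.862 of those of Mir148b, and 1.21% ± 0.0917 and 1.76% ± 1.51 of those of Mir152 (SD, n = 6 per tissue). The 3p arm was therefore the main product of all 3 precursors in both tissues, and in colon the share of the 5p arm did not overlap between any of the precursors. In blood the share for Mir152 rests on 1 to 7 counts of miR-152-5p per library and ranged from 0.485% to 4.23%. The lowest and highest of these carry 95% Wilson intervals of 0.0857% to 2.70% and of 1.95% to 8.91%, which cover counting error only.

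No difference between the tissues passed the test for the share of the 5p arm of Mir148b or Mir152. That of Mir148a is made of miR-148a counts alone, so it is given without a test. Blood minus colon was 0.051 percentage points for Mir148a, higher in blood in 5 of 6 mice. For Mir148b it was 0.53 (exact permutation p = 0.156, adjusted over the 3 precursors 0.234, 5 of 6 mice). For Mir152 it was 0.552 (exact permutation p = 0.444, adjusted 0.444, 3 of 6 mice). These permutations do not pair blood and colon of a mouse. With pairing by mouse, the exact sign-flip p was 0.188 for Mir148b and 0.469 for Mir152 (adjusted 0.281 and 0.469). With a mouse left out, the difference for Mir148a lay between 0.0336 (without mouse 4) and 0.0642 percentage points (without mouse 9). The difference for Mir148b was 0.234 percentage points without mouse 8, and that for Mir152 was 0.0519 without mouse 2. Within a tissue, the share of the 5p arm overlapped between DSS and control mice in all cases except Mir148b in blood, where it was 2.77% to 3.51% in DSS mice and 4.06% to 5.30% in controls (exact permutation p = 0.1, the smallest that 3 against 3 allows, adjusted over 6 comparisons 0.6). In colon the share for Mir148a was 0.127%, 0.105% and 0.198% in DSS mice 1, 7 and 9 and 0.0962%, 0.129% and 0.135% in control mice 2, 4 and 8, and the groups overlapped.

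The miRNAs whose pattern over the 12 libraries was most like that of miR-148a-3p were then listed. Each library's log2(CPM + 1) on the 12-library scale was set against the mean of the control libraries of the same tissue, and likeness was the root mean square difference from miR-148a-3p over the 12 libraries. Among 153 miRNAs outside the family with a mean of at least 10 CPM in both tissues, the nearest were miR-192-5p (0.391), miR-200b-3p (0.41), miR-182-5p (0.41), miR-378c (0.419) and miR-210-3p (0.423), where the median of the 153 was 0.878. miR-192-5p, miR-200b-3p and miR-182-5p are on the epithelial list. miR-378c and miR-210-3p are on none of the lists, and miR-210-3p is known as a miRNA induced by low oxygen.

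These 5 were not near miR-148a-3p in the same libraries. In the colon of DSS mice 1, 7 and 9, miR-148a-3p deviated from the controls by -0.75, -1.44 and -2.05 on the log2 scale, and miR-192-5p, miR-200b-3p and miR-182-5p had the same order of mice with mean deviations of -1.40, -1.22 and -1.39, against -1.42 for miR-148a-3p. In the blood of DSS mice the mean deviation was 0.72 for miR-148a-3p, 0.68 for miR-378c and 0.62 for miR-210-3p, but 0.22, 0.11 and 0.10 for miR-192-5p, miR-200b-3p and miR-182-5p. In blood, mouse 1 was the highest DSS library for all 6, at 1.58 for miR-148a-3p and 1.37 for miR-378c. The other members of the family were farther away: 0.67 for miR-148b-3p, 0.664 for miR-148b-5p and 0.945 for miR-152-3p, with 21, 21 and 93 of the 153 miRNAs nearer. The 12 points share 6 mice and the scaling of the libraries, and these values are a description.

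**Figure D5:**
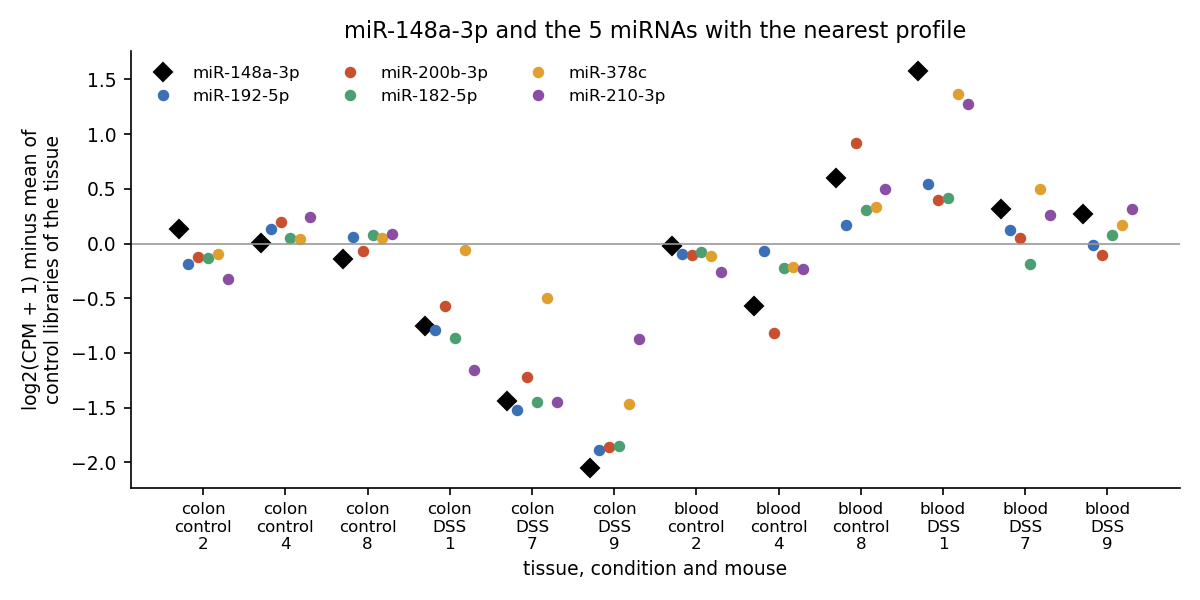
Deviation of miR-148a-3p (black diamonds) and of the 5 miRNAs with the nearest profile in each of the 12 libraries, as log2(CPM + 1) minus the mean of the 3 control libraries of the same tissue. In the DSS colon libraries all 6 lie below 0, and in the blood of mouse 1 all 6 lie above 0, with miR-148a-3p at 1.58.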

How the data were processed

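Small RNA libraries from colon and whole blood of 6 mice were analysed. The authors trimmed the reads with Flexbar, collapsed them with fastx-toolkit and counted them on mature mouse miRNAs of miRBase with the miRDeep2 quantifier. They deposited raw counts per miRNA, and per tissue a normalized signal, which the authors made by dividing the counts by DESeq2 size factors.

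edgeR (4.0.16, in R 4.3.3) was run on the counts, with TMM factors, filterByExpr, glmQLFit and glmQLFTest without covariates. Each tissue was fitted alone for DSS against control, and the 12 libraries together for contrasts between tissues. P-values were Benjamini-Hochberg adjusted over all miRNAs tested. The SE is the log2FC divided by the square root of F. The code was tested on simulated data.

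The 6 arms, the marker lists and the rule for the miRNAs named (the 6 arms, the 5 nearest profiles, and the 2 most abundant members of each list in the tissue described) were chosen with earlier results of these data known. The lists come from general knowledge. Tests of miR-148a between tissues within control or DSS mice had been planned, but are left out because the rule used the difference between them. The planned tests of the shares of the 3p counts and of the 5p share of Mir148a are left out too, since these hold counts of miR-148a. The ratio of miR-148b-3p to miR-152-3p was added after the data were seen. This ratio and the other 5p shares were compared with exact permutation tests, two-sided, in scipy (1.17.1). The adjustment of the 5p shares between tissues still ran over all the precursors. The number of per-sample columns left unused was 0.

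Alternatives were DESeq2 (1.42.0, Wald), RLE or upper-quartile factors, total counts alone, no filter, at least 10 counts in every library, identical mature sequences counted once, robust dispersion, each mouse left out, and the grouping of the disease state label. In colon and blood, all 12 libraries in 1 fit and limma (3.58.1) on log2(deposited signal + 1) were added, and between tissues a block for the mouse. Colon and blood libraries with the same number come from 1 animal and so are paired. Their deviations from the group means had correlations of -0.279 to 0.157 over 121 miRNAs.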

Additional observations from a re-analysis of the deposited data

How the results depend on the processing

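Each group has 3 mice. With the disease state label, under which edgeR called 0 of the 542 miRNAs in colon SDE and 20 had an unadjusted p under 0.05 (55 and 170 in the grouping used), the log2FC in colon turned to 0.81 for miR-148a-3p, 0.56 for miR-148a-5p, 0.28 for miR-148b-3p, 0.30 for miR-148b-5p, -0.030 for miR-152-3p and -0.047 for miR-152-5p, and the difference between tissues turned to -0.61 for miR-148a-3p, -0.39 for miR-148a-5p and -0.13 for miR-152-5p; the cause was not tested. None of the 4 arms of miR-148b and miR-152 was SDE for DSS in colon, in blood or for the difference between tissues under any alternative run, a count of 0 to 0 with each mouse left out.

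The difference between tissues turned for miR-152-3p with DESeq2 (-0.11) and RLE factors (-0.12). For miR-152-5p it turned with DESeq2 (-0.34), RLE (-0.31), upper-quartile factors (-0.021), total counts (-0.20) and no filter (-0.029), and lay between -0.57 and 0.76 with a mouse left out (-0.23 without mouse 4, -0.15 without mouse 8, -0.57 without mouse 9). In blood, miR-148b-5p turned to -0.20 without mouse 1 and reached 0.24 without mouse 7. miR-152-5p was too low for a fit in blood except without the filter and in the fit of 12 libraries.

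All 4 arms of miR-148b and miR-152 were SDE between the tissues in control and in DSS mice, and 4 to 4 were with a mouse left out. With at least 10 counts in every library 3 were, since miR-152-5p was then not tested, and with total counts 3 were in control mice. For miR-148a-5p, not tested, the log2FC in DSS mice turned to 0.20 with upper-quartile factors. With the block for the mouse 4 and 4 arms were SDE between the tissues, and no call of the arms of miR-148b and miR-152 changed. Over all miRNAs the block took the calls for the difference between tissues from 0 to 1 (edgeR, 94 and 66 with an unadjusted p under 0.05). For miR-148a-3p that difference was 2.14 (SE 0.40) with the block. In blood, the log2FC of miR-148a-5p moved to 0.69 with total counts and 0.72 in the fit of 12 libraries, and its difference between tissues to 1.41 with DESeq2 and with RLE factors.

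For the shares of the 3p counts, not tested, the differences in control mice alone were -20.9 (miR-148a-3p), 22.7 (miR-148b-3p) and -1.80 (miR-152-3p) percentage points, and in DSS mice alone -15.0, 21.3 and -6.32. For the log2 ratio of miR-148b-3p to miR-152-3p, the difference was 7.25 in control mice and 7.94 in DSS mice alone (exact permutation p = 0.1, the smallest for 3 against 3) and 7.51 to 7.74 with a mouse left out. Its pairing by mouse (the replicate block) gave an exact sign-flip p of 0.0312, the smallest for 6 mice. The 5p share of Mir148b turned to -0.0083 percentage points in DSS mice alone. That of Mir148a, not tested, was 0.0336 to 0.0642 with a mouse left out. With a mouse left out, that of Mir148b was 0.234 to 0.759 and that of Mir152 0.0519 to 0.833.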
